A study of Mus musculus with 54 samples.

Results

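Ephrins, Slits and netrins and their receptors, the classical guidance molecules of the developing nervous system, were examined in the adult mouse brain. The members were chosen by gene symbol alone from the protein-coding rows of the count table: Eph receptors, ephrins, Slit1 to Slit3, Robo1 to Robo4, netrins, netrin-Gs, Unc5a to Unc5d and Dcc. In the GRCm38 annotation 40 genes matched, and 39 of them had a row among the 21637 protein-coding rows that the annotation named, in a table of 47069 genes. Ntn3 was not analysed here. The 39 members comprised 9 EphA and 5 EphB receptors, 5 ephrin-A and 3 ephrin-B ligands, 3 Slits, 4 Robo receptors, 3 netrins, 2 netrin-Gs and 5 netrin receptors. The rule itself used no measured value, but it was set with earlier results of these data known.

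Polyadenylated RNA had been sequenced from 3 brain regions (cerebellum, cortex, striatum) of each of 18 mice, aged 8 weeks and on a C57BL/6 background, which gave 54 libraries. Of the mice, 10 carried 1 gene-trap allele of Mbd5 (Mbd5+/GT, 5 females and 5 males) and 8 were wild type (WT, 5 females and 3 males). The trap lies in an intron of Mbd5, a gene for a methyl-CpG-binding domain protein, and makes a hypomorphic allele in every cell rather than in a chosen cell type. The animals came from 3 litters, with 3 Mbd5+/GT and 3 WT mice in litter 1 (all females), 4 and 1 in litter 2 (all males) and 3 and 4 in litter 3 (both sexes). For 2 WT mice the striatum library carried a label saying it was a repeat.

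Eph receptors are receptor tyrosine kinases that bind ephrins on neighbouring cells, with ephrin-A ligands tethered to the membrane by a lipid anchor and ephrin-B ligands spanning it, and contact between the cells usually repels the growing axon. Slits are secreted proteins that repel axons through Robo receptors, the pair that keeps commissural axons from recrossing the midline. Netrins are laminin-related secreted proteins that attract axons through Dcc and repel them through the Unc5 receptors, whereas netrin-Gs are anchored to the membrane and bind synaptic adhesion partners. Many of these genes stay active after development, when Eph receptors act at synapses of the cortex and striatum and netrin, Slit and Unc5 proteins are found in cerebellar neurons.

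Between 25295973 and 49027399 reads per library fell on genes (median 29073866), and a level is given in CPM, the count scaled to one common library size after TMM normalization. Mbd5, the trapped gene, averaged 55 CPM ± 10.8 (SD, n = 8) in WT and 42.3 ± 10.95 (n = 10) in Mbd5+/GT cerebellum, 65.9 ± 9.56 and 46.0 ± 4.44 in cortex, and 48.1 ± 8.49 and 36.1 ± 5.01 in striatum, with overlapping ranges in each region. Lists of markers were summed in each library as a check of the labelled tissue. In 14 of the 18 cerebellum libraries a list of 10 granule and Purkinje cell genes summed to 7168 to 9087 CPM and Hox genes of the hindbrain and spinal cord were nearly absent. The other 4, from Mbd5+/GT mice M755 and M756 and WT mice M754 and M761, carried 49.4 to 283 CPM of 11 Hox genes, with granule and Purkinje sums of 228, 7305, 2556 and 5576 CPM. In striatum the sum of 10 striatal projection neuron genes ranged from 279 to 8210 CPM, and 5 libraries (WT M754 and M761, Mbd5+/GT M755, M756 and M763) lay below the highest cortex library, at 2090 CPM. The 4 mice with Hox counts are among these 5, and all 5 are female, so leaving out their libraries removed females only. Both sets of libraries were kept. The regional counts of members in WT mice and the genotype counts in cerebellum and striatum were also taken without them. The regional counts in Mbd5+/GT mice, those of other pathway genes and the interactions were not. In cortex the sum of striatal projection neuron genes ranged from 188 to 2090 CPM, with WT M765, M752 and M761 highest (2090, 2025 and 2015 CPM). Among WT cortex libraries these held the highest Efnb3 and the lowest Robo3 and Ntn5. No cortex library was left out for these markers, so the cortex levels, folds and overlaps include them all. In bulk tissue, fewer cells of a type cannot be told apart from less RNA of a gene per cell.

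In the adult brain the members were spread over a wide range of levels, and most were lower in cerebellum than in the forebrain regions. WT means ran from 0.0987 to 114 CPM in cerebellum, from 0.243 to 169 CPM in cortex and from 0.471 to 203 CPM in striatum, with medians over the 39 genes of 15.1, 24.4 and 18.2 CPM. Cerebellum held the lowest of the 3 WT means for 24 members and the highest for 9, whereas cortex held the highest for 21. The shares of all genes with their lowest or highest mean in each region were not computed. A regional difference was called at an adjusted p under 0.05 and at least 2-fold, from edgeR's quasi-likelihood test over 20477 genes, and all 39 members passed the filter on low counts. Against cortex, 6 members were higher and 22 lower in WT cerebellum, where 8.97% and 15.7% of all genes tested were called in these directions. Against striatum, 7 were higher and 17 lower in cerebellum, beside 12.8% and 17.3% of all genes. Cortex and striatum differed at 5 higher and 1 lower member, beside 6.15% and 4.4% of all genes. The median log2 difference over the members was −1.20, −0.94 and 0.27 in these contrasts and 0.02, −0.02 and 0.00 over all genes tested.

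**Figure D1:**
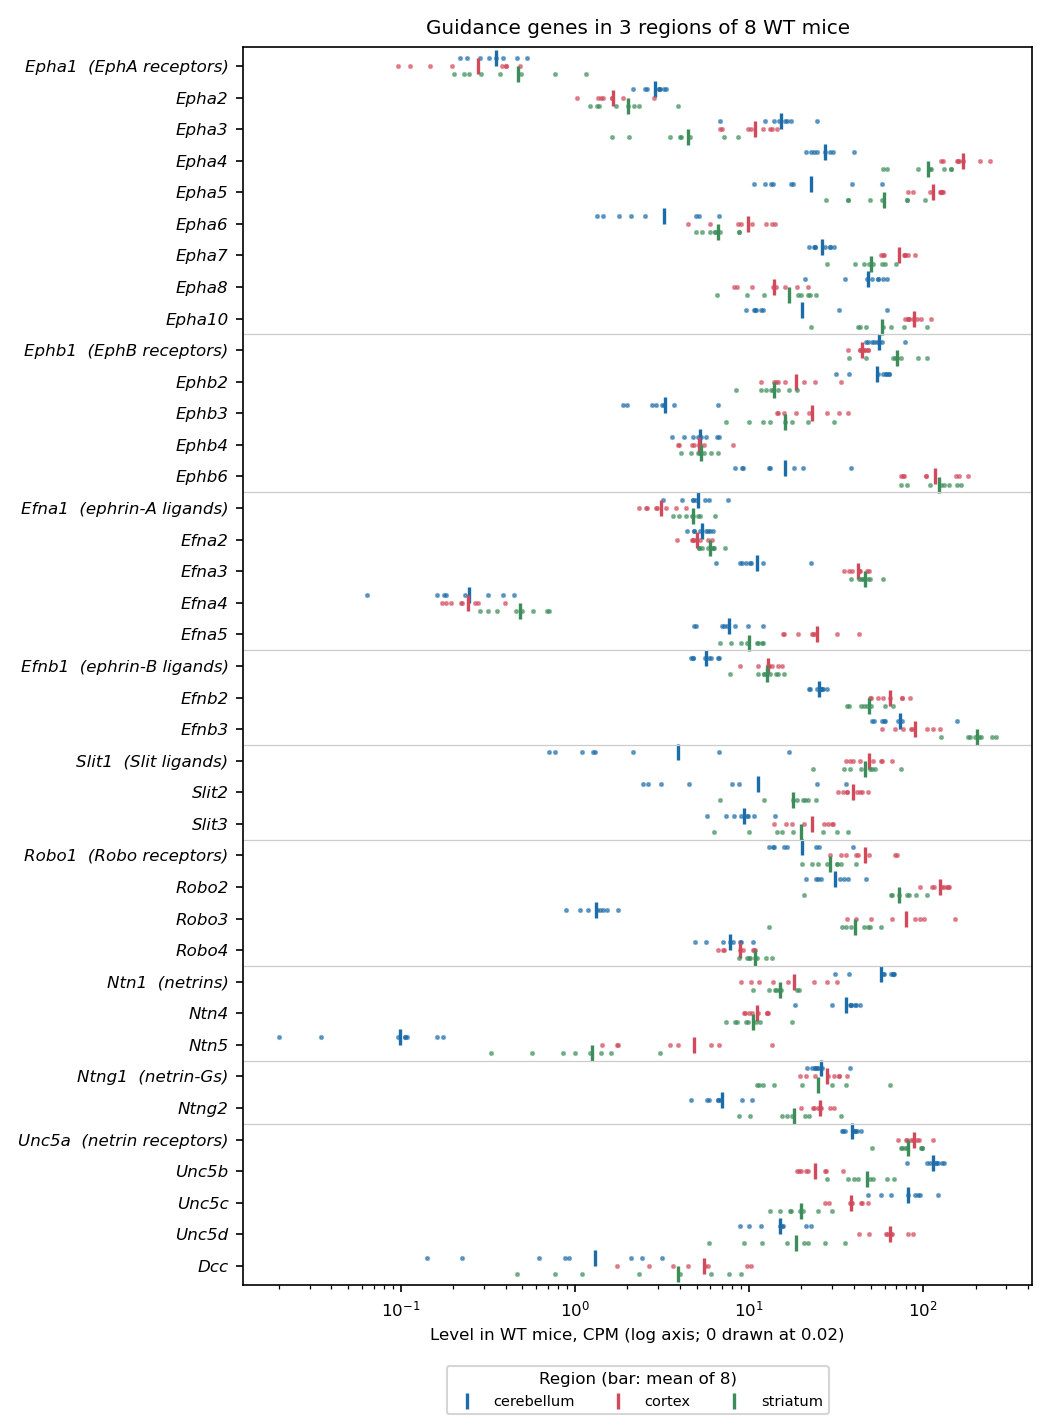
Level of each of the 39 guidance genes in WT mice in CPM on a log axis, with 1 point per library, a bar at the mean of 8 mice and colours for the regions; genes are grouped by role. Robo3, Slit1 and Ntn5 sit far lower in cerebellum than in cortex or striatum, and Unc5b, Ntn1 and Ntn4 sit higher.

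The contrasts in Mbd5+/GT mice share no library with the WT contrasts, but the same fit gave both genotypes their estimate of the spread. In Mbd5+/GT mice 28 members were called between cerebellum and cortex, 29 between cerebellum and striatum and 5 between cortex and striatum. Of all genes, 24.8%, 27.4% and 6.4% were called there in either direction. Of these members, 27, 24 and 4 were called in both genotypes in the same direction. The share of all genes called in both genotypes was not computed. Robo1 was called against cortex only in WT mice and Epha2 only in Mbd5+/GT mice. Some groups without overlap in WT mice did overlap in Mbd5+/GT mice. Between cortex and striatum these were Efna5, Efnb3, Slit2 and Unc5d. Between cerebellum and cortex they were Epha10, Efna3, Ntn4 and Unc5c. Between cerebellum and striatum they were Ephb2, Ephb3, Slit1, Ntn1, Ntn4, Ntn5 and Unc5c. The reverse held in 1 contrast each for Epha3, Epha7, Ephb1 and Efna1. Whether a regional difference depended on genotype is tested at the end. Without the 4 cerebellum libraries with Hox counts the counts in WT mice were 6 and 22 against cortex, with all 28 calls retained, and 7 and 18 against striatum, where Slit2 was added. Without the 5 striatum libraries low in striatal markers they were 7 and 19 for cerebellum against striatum, adding Epha7 and Efnb2, and 6 and 2 for cortex against striatum, adding Epha5 and Unc5b.

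The promoters of the members with a steep regional difference are shown for both directions, to set genes low in cerebellum beside genes high there. RefSeq promoter windows (GRCm38.p6, 250 bases before and 50 after a start) were at hand for 34 members as 39 windows. Each sequence reads 5′ to 3′ on the strand of the gene, with CpG dinucleotides in capitals. Robo3 (chr9:37433126-37433425, minus strand) and Ntn5 (chr7:45683772-45684071, plus strand) were low in cerebellum, and Unc5b (chr10:60831532-60831831, minus strand) and Epha8 (chr4:136956767-136957066, minus strand) were high.
Robo3: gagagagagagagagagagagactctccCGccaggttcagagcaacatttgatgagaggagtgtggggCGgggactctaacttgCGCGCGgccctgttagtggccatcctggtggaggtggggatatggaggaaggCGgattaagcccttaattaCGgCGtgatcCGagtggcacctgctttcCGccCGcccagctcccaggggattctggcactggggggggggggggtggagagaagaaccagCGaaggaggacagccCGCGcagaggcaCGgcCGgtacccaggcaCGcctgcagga
Ntn5: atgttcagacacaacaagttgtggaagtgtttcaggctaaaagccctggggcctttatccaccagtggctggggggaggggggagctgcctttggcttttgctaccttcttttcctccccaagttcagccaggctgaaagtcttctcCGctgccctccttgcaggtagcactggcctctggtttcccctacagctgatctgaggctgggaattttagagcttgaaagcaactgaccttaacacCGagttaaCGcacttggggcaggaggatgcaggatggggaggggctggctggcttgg
Unc5b: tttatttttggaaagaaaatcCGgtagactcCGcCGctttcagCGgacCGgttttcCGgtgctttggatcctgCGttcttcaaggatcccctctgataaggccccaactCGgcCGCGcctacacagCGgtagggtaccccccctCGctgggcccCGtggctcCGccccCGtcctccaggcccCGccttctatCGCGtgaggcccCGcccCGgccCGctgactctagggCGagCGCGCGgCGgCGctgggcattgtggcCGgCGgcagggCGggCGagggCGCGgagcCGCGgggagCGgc
Epha8: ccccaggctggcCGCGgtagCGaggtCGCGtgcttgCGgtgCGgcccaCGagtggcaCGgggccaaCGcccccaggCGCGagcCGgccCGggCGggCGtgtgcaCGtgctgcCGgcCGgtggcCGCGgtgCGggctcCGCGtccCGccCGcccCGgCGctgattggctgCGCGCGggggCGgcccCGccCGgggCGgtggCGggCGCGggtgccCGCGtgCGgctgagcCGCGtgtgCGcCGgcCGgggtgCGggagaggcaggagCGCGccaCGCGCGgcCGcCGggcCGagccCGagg
The Unc5b and Epha8 windows held 36 and 56 CpGs, the Robo3 window 17 and the Ntn5 window 3. Over the 39 member windows the median was 21 CpGs, against 7 over all 32851 windows of the table. The 5 windows of members higher in cerebellum than cortex held 24 to 56 CpGs (median 31), and the 23 windows of members lower there held 3 to 41 (median 22), so the ranges overlapped. On either strand, GGGCGG (the GC box) stood in 26 member windows (66.7%, against 35.7% of all windows), TATAAA in 2 (5.1%, against 13.6%) and CCAAT in 15 (38.5%, against 37.4%). None of these motifs contains another, and a match describes the letters only.

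Among the EphA receptors, Epha4, Epha5, Epha6, Epha7 and Epha10 were lower in WT cerebellum than in cortex and Epha8 was higher. Epha4, a receptor that binds ephrins of both classes and acts in spine remodelling, ranged from 21.3 to 40.0 CPM in WT cerebellum (median 25.9), from 127 to 243 in cortex (median 159) and from 58.8 to 145 in striatum (median 110). Its cerebellar libraries lay below all others, 6.18-fold below cortex on the means of the fit (log2 difference −2.63 ± 0.18 SE, adjusted p = 2.48e-18) and 3.90-fold below striatum. Epha5 and Epha7, receptors of ephrin-A ligands, averaged 22.8 CPM ± 16.8 and 26.2 ± 3.27 in cerebellum against 114 ± 19.7 and 72.8 ± 12.4 in cortex (SD, n = 8), and neither range overlapped. Epha10, which lacks an active kinase, averaged 20.02 ± 18.5, 89.1 ± 10.6 and 57.7 ± 25.3 CPM in cerebellum, cortex and striatum.

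Epha8 went the other way, and it is a receptor best known from the midbrain tectum. Its WT libraries ranged from 21.0 to 61.9 CPM in cerebellum (median 53.1), from 8.22 to 21.8 in cortex (median 14.1) and from 6.59 to 24.2 in striatum (median 19.6). The cerebellum was 3.45-fold above cortex (log2 1.79 ± 0.26, adjusted p = 7.46e-08) and 2.85-fold above striatum, and a single WT cerebellum library (M754, at 21.0, one with Hox counts) fell within the range of the other regions. Epha3, whose ligands include ephrin-A5, was set apart by striatum. It ranged from 6.83 to 24.6 CPM in cerebellum (median 15.5), from 6.82 to 14.4 in cortex (median 11.2) and from 1.63 to 8.64 in striatum (median 4.03), so that striatum was 3.43-fold below cerebellum (adjusted p = 4.27e-07) and 2.44-fold below cortex (adjusted p = 0.00027), with overlap in both cases. The low Epha3 level in striatum fell short of 2-fold below cortex without the 2 repeated striatum libraries (log2 1.00, adjusted p = 0.0051). Epha6 averaged 3.26 ± 2.05, 9.81 ± 3.48 and 6.67 ± 1.41 CPM. Epha1 and Epha2, epithelial receptors, were scarce, at 0.279 to 0.471 and 1.66 to 2.88 CPM on average, and Epha1 rested on 3 to 36 counts per WT library.

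The EphB receptors, which bind ephrin-B ligands, moved in opposite directions within the class. Ephb6, which lacks kinase activity, ranged from 8.26 to 38.3 CPM in WT cerebellum (median 13.1), from 75.0 to 181 in cortex (median 104) and from 74.5 to 165 in striatum (median 129). Every WT cerebellum library was below every other WT library, by 7.19-fold against cortex (log2 −2.85 ± 0.30, adjusted p = 1.65e-11) and 7.59-fold against striatum (log2 −2.92 ± 0.30, adjusted p = 6.9e-12). Ephb3 was also low in cerebellum, with 1.89 to 6.66 CPM in cerebellum (median 3.04), 14.6 to 37.1 in cortex (median 20.3) and 7.41 to 30.7 in striatum (median 14.7). It was 6.95-fold below cortex (log2 −2.80 ± 0.30, adjusted p = 2.82e-11) and 4.88-fold below striatum (log2 −2.29 ± 0.30, adjusted p = 3.71e-09), with no overlap.

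Ephb2, a receptor that clusters NMDA receptors at excitatory synapses, was the EphB gene called higher in cerebellum. Its WT libraries ranged from 31.7 to 63.7 CPM in cerebellum (median 60.0), from 11.8 to 33.9 in cortex (median 15.4) and from 8.45 to 18.9 in striatum (median 13.6). The difference was 2.90-fold over cortex (log2 1.54 ± 0.21, adjusted p = 1.09e-08), where the ranges overlapped slightly, and 3.91-fold over striatum (log2 1.97 ± 0.21, adjusted p = 1.73e-11), where they did not. Ephb1 and Ephb4 were not called in any contrast. Ephb1 averaged 55.7 ± 9.95, 44.6 ± 3.52 and 70.5 ± 22.1 CPM, and Ephb4, a receptor of veins, 5.24 ± 1.07, 5.18 ± 1.30 and 5.31 ± 0.801 CPM.

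The ephrin-A ligands ranged from Efna4, at 0.243 to 0.487 CPM on average, to Efna3. Efna3 averaged 11.2 CPM ± 4.89 in WT cerebellum against 42.3 ± 4.77 in cortex and 46.5 ± 5.93 in striatum, 3.79-fold and 4.17-fold below them without overlap, and 14.1% of its exon bases lie under a gene on the other strand. Efna5, which sets up topographic maps in the developing visual system, was higher in cortex than in either other region. It ranged from 15.6 to 42.8 CPM in cortex (median 23.2), from 6.83 to 12.0 in striatum (median 10.5) and from 4.81 to 12.1 in cerebellum (median 7.31). The WT cortex libraries lay above all other WT libraries, 2.45-fold over striatum (log2 1.29 ± 0.19, adjusted p = 1.13e-06). In Mbd5+/GT mice the same difference was log2 1.00 (adjusted p = 3.45e-05), just short of 2-fold. Efna1 and Efna2 were not called, with averages of 5.12, 3.11 and 4.77 CPM and of 5.36, 5.03 and 5.94 CPM in cerebellum, cortex and striatum. Efna4 was 1.97-fold lower in cerebellum than striatum (log2 −0.98), short of a call, and was called with the mouse as a replicate block (log2 −1.01, adjusted p = 0.0029).

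Of the ephrin-B ligands, Efnb3, a midline barrier of the corticospinal tract, stood out in striatum. It ranged from 127 to 262 CPM in WT striatum (median 203), from 58.3 to 125 in cortex (median 85.9) and from 51.2 to 157 in cerebellum (median 60.2). All WT striatum libraries exceeded all WT cortex libraries, with a cortex minus striatum log2 difference of −1.17 ± 0.25 (2.26-fold, adjusted p = 0.00017), and the striatum was 2.77-fold above cerebellum. This was the single member called lower in cortex than striatum. Efnb1 and Efnb2, the latter an arterial ligand also made by neurons, averaged 5.63 ± 0.847 and 25.2 ± 2.08 CPM in cerebellum, 12.8 ± 2.05 and 64.2 ± 13.0 in cortex and 12.7 ± 2.49 and 48.7 ± 10.7 in striatum. Both were lower in each WT cerebellum library than in any WT library of the other regions, and Efnb2 fell just short of a call against striatum, at 1.93-fold.

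The Slits and Robo receptors were lower in cerebellum or not called. Slit1, the Slit made mainly by neurons, ranged from 0.712 to 17.1 CPM in WT cerebellum (median 1.29), from 35.9 to 66.5 in cortex (median 47.5) and from 23.4 to 75.0 in striatum (median 46.8). No WT cerebellum library reached a WT forebrain library, and the difference was 12.4-fold against cortex (log2 −3.63 ± 0.67, adjusted p = 7.95e-06) and 11.7-fold against striatum (log2 −3.55 ± 0.67, adjusted p = 8.72e-06). Without the 4 cerebellum libraries with Hox counts it widened to 40.0-fold and 38.6-fold. Slit2, which also patterns the optic chiasm, averaged 11.3 ± 12.4, 39.7 ± 5.60 and 17.9 ± 5.67 CPM. The cortex lay above striatum in every pair of WT libraries, by 2.22-fold (log2 1.15 ± 0.45, adjusted p = 0.031), a call that was lost without the filter on low counts (adjusted p = 0.068) and without the 2 repeated libraries (0.13). Slit2 in cerebellum was 3.52-fold below cortex with all libraries and 8.09-fold without the 4 with Hox counts. Against striatum it was called with the mouse as a replicate block (log2 −1.09, adjusted p = 0.011) and not without it (log2 −0.66, adjusted p = 0.19). Slit3 averaged 9.33 ± 2.48, 23.1 ± 6.63 and 19.96 ± 10.8 CPM and was called lower in cerebellum against both regions.

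Robo3, an atypical Robo that lets commissural axons cross the midline, had the largest fold between regions of the 39 members in WT mice. Its libraries ranged from 0.894 to 1.77 CPM in cerebellum (median 1.37), from 36.5 to 152 in cortex (median 78.3) and from 13.0 to 56.9 in striatum (median 42.3). The cerebellum was 59.5-fold below cortex (log2 −5.89 ± 0.41, adjusted p = 1.22e-17) and 30.3-fold below striatum (log2 −4.92 ± 0.40, adjusted p = 1.84e-15). The Mbd5+/GT libraries repeated the order, with 0.446 to 4.39 CPM in cerebellum, 25.1 to 113 in cortex and 16.4 to 88.8 in striatum. Robo1 and Robo2, the receptors that carry Slit repulsion, averaged 20.2 ± 9.12 and 31.1 ± 8.503 CPM in cerebellum, 46.4 ± 15.8 and 125 ± 15.7 in cortex and 29.4 ± 6.81 and 72.9 ± 24.8 in striatum. Robo2 was 4.02-fold lower in cerebellum than cortex without overlap. Robo4, a receptor of endothelial cells, averaged 7.73, 8.87 and 10.8 CPM and was not called, and the sum of 8 endothelial markers overlapped between all regions, at 209 to 347 CPM.

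The secreted netrins divided by gene. Ntn1, the founding axon attractant, ranged from 31.4 to 68.4 CPM in WT cerebellum (median 62.2), from 8.97 to 31.9 in cortex (median 15.3) and from 10.5 to 19.5 in striatum (median 14.6). It was 3.14-fold higher in cerebellum than cortex (log2 1.65 ± 0.25, adjusted p = 1.98e-07) and 3.78-fold higher than striatum (log2 1.92 ± 0.26, adjusted p = 6.25e-09), without overlap in striatum. Ntn4, a basement membrane netrin, ranged from 18.3 to 43.4 CPM in cerebellum (median 38.4), from 9.32 to 12.8 in cortex (median 10.9) and from 7.35 to 17.7 in striatum (median 9.73). All WT cerebellum libraries were above all others, by 3.25-fold (log2 1.70 ± 0.19, adjusted p = 3.14e-11) and 3.44-fold (log2 1.78 ± 0.19, adjusted p = 7.11e-12). Ntn5 went in the opposite direction, with 0.0 to 0.174 CPM in cerebellum (median 0.106), 1.42 to 13.5 in cortex (median 3.71) and 0.332 to 3.09 in striatum (median 1.11). Cerebellum was below cortex by 46.3-fold (log2 −5.53 ± 0.66, adjusted p = 3.88e-10) and below striatum by 12.2-fold (log2 −3.61 ± 0.65, adjusted p = 4e-06), on 0 to 6 counts per cerebellum library. Cortex was 3.80-fold above striatum (log2 1.93 ± 0.51, adjusted p = 0.0019). Of the Ntn5 exon bases, 23.4% lie under Sec1 on the other strand, and the strand setting of the counting was not given, so part of its counts may belong to that gene. In WT cortex, M751 was highest and M752 lowest for both Ntn5 and Robo3.

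The netrin-Gs, membrane-anchored relatives that act at synapses, differed from each other. Ntng2 averaged 6.997 CPM ± 1.88 in WT cerebellum, 25.4 ± 3.44 in cortex and 18.2 ± 7.81 in striatum and was called lower in cerebellum in both contrasts. Ntng1, a gene strong in thalamic relay neurons, was not called, with 25.8 ± 5.17, 28.2 ± 6.10 and 24.9 ± 18.5 CPM. Its highest levels in striatum stood beside high sums of thalamic markers, and the cause of this spread was not tested. The striatum libraries of Mbd5+/GT M758 and WT M762 had 124 and 64.5 CPM of Ntng1 and the 2 highest sums of 7 thalamic genes, 938 and 545 CPM, against at most 35.9 CPM and 409 CPM in the other 16. These libraries also held the 2 highest striatal sums of hypothalamus genes and high sums of choroid plexus genes. In cerebellum the median sum of the thalamic list was higher still in both genotypes, while Ntng1 was lower there. The list therefore does not mark thalamus alone.

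Among the netrin receptors, Unc5b and Unc5c were higher in cerebellum and Unc5a, Unc5d and Dcc were lower than in cortex. Unc5b, a dependence receptor also found in vessels, ranged from 80.5 to 132 CPM in WT cerebellum (median 119), from 18.7 to 34.9 in cortex (median 21.5) and from 27.9 to 68.4 in striatum (median 45.9). Cerebellum was above both without overlap, 4.80-fold over cortex (log2 2.26 ± 0.16, adjusted p = 2.02e-17) and 2.41-fold over striatum. Unc5c, mutated in a mouse strain with misplaced cerebellar neurons, ranged from 48.5 to 122 CPM in cerebellum (median 85.6), from 27.4 to 48.2 in cortex (median 38.7) and from 13.3 to 30.1 in striatum (median 18.5). It was 2.12-fold above cortex and 4.13-fold above striatum (log2 2.05 ± 0.21, adjusted p = 2.23e-12), again without overlap. Unc5d, a receptor of upper-layer cortical neurons that also binds Flrt proteins, was highest in cortex, with 42.9 to 87.6 CPM in cortex (median 63.8), 5.89 to 35.6 in striatum (median 18.7) and 8.88 to 22.7 in cerebellum (median 15.2). The WT cortex libraries lay above all WT striatum libraries, by 3.45-fold (log2 1.79 ± 0.30, adjusted p = 7.22e-06). Unc5a averaged 38.8 ± 3.57, 88.1 ± 12.7 and 81.7 ± 16.2 CPM and was lower in every WT cerebellum library than elsewhere. Dcc, the attractive netrin receptor, was low in the adult, at 1.31 ± 1.11, 5.503 ± 3.12 and 3.93 ± 3.32 CPM, with called differences of 4.18-fold and 2.98-fold between cerebellum and the others, which became 6.79-fold and 4.93-fold without the 4 libraries with Hox counts.

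**Figure D2:**
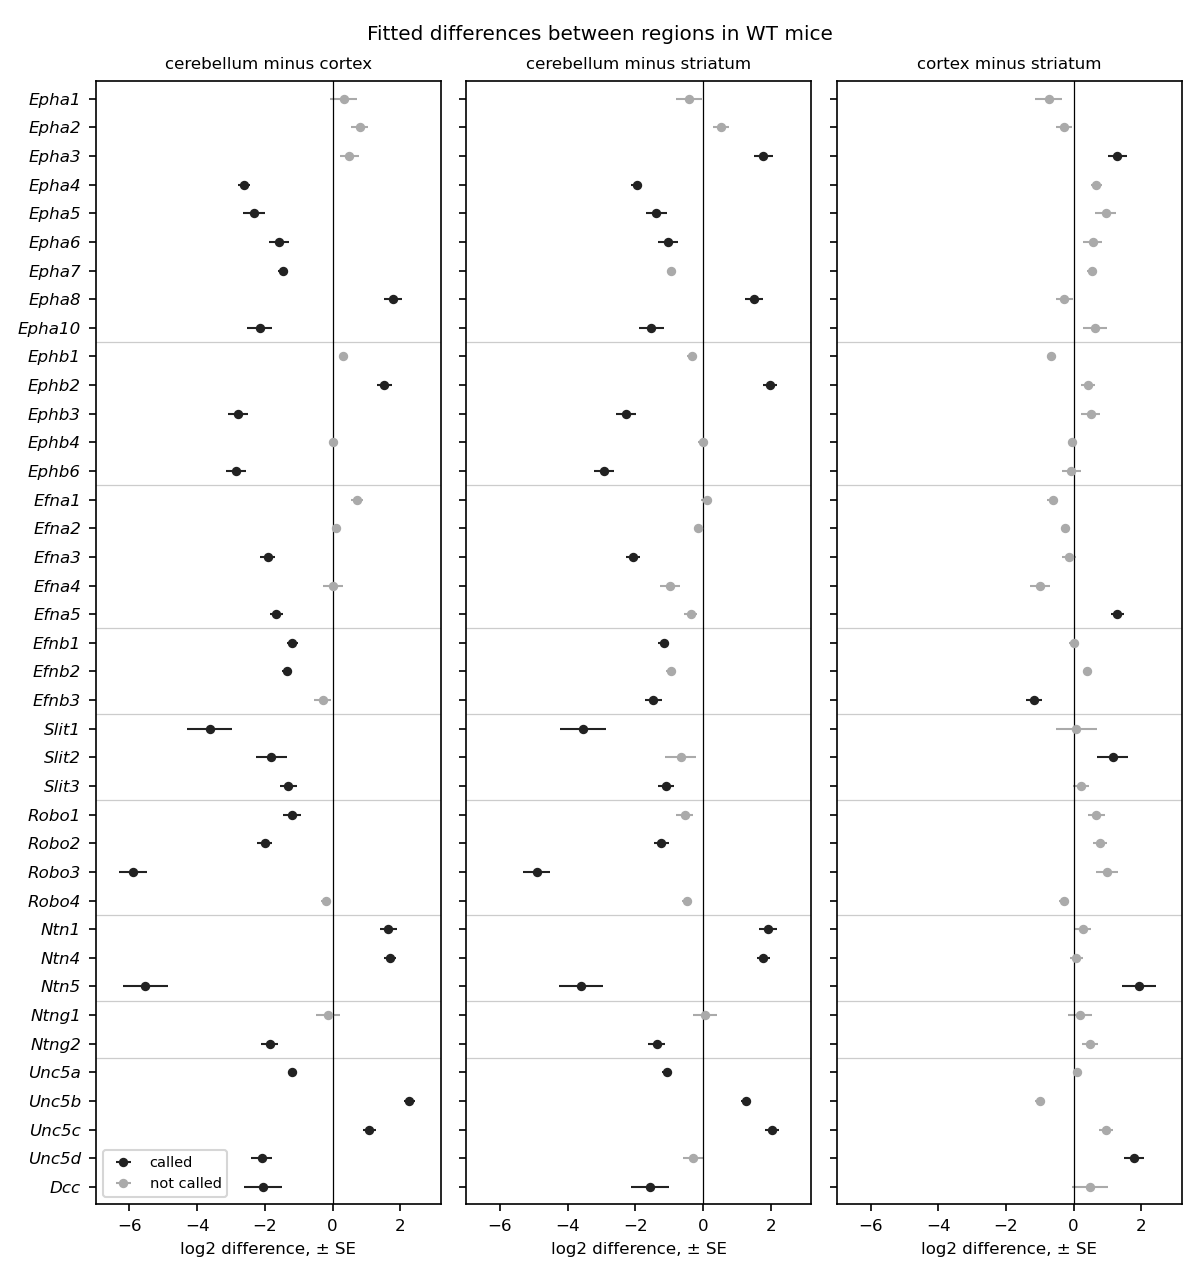
Fitted log2 difference between 2 regions in WT mice for each member, with bars of 1 SE, for cerebellum minus cortex, cerebellum minus striatum and cortex minus striatum; black points were called at an adjusted p under 0.05 and at least 2-fold. Most black points in the left and middle panels lie below 0, down to −5.89 for Robo3, and the right panel holds 6 black points.

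Per base of exon, levels can be compared between genes, as CPM per kilobase (RPKM). In WT cortex Ephb6 (30.9 RPKM ± 11.3, SD, n = 8) and Efnb3 (28.3 ± 7.29) were the top members and did not differ beyond their spread, followed by Unc5a (21.2 ± 3.05), Epha4 (21.0 ± 4.87) and Efna3 (17.4 ± 1.96). Striatum was led by Efnb3 (63.8 ± 13.2), ahead of Ephb6 (32.6 ± 8.71), and cerebellum by Efnb3 (23.1 ± 10.98) and Unc5b (18.3 ± 2.62), which differed by less than the SD of Efnb3, then Epha8 (10.3 ± 2.91). Below 1 RPKM on average were 10 members in cerebellum, 4 in cortex and 7 in striatum. With the length of the longest transcript in place of all exons, 8 of the top 10 in WT cortex stayed among the top 10.

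Summed over roles per length, the EphA receptors reached 23.5 RPKM ± 1.44 in WT cerebellum, 54.1 ± 5.35 in cortex and 35.8 ± 5.67 in striatum. Ephrin-B ligands summed to 28.4 ± 10.7, 41.4 ± 8.95 and 74.6 ± 12.6. The Slits summed to 2.64 ± 1.61, 13.6 ± 2.93 and 11.8 ± 2.10 and the Robo receptors to 4.71 ± 1.19, 23.4 ± 5.29 and 14.0 ± 3.44, so both sums were lowest in cerebellum. The Robo sum includes the atypical Robo3, which had the largest fold between regions. Robo1 and Robo2, the receptors that carry Slit repulsion, also had their lowest WT mean in cerebellum. The 3 netrins showed the opposite, at 18.8 ± 4.39, 8.03 ± 1.47 and 5.77 ± 0.864. The 5 netrin receptors summed to 33.6 ± 2.34, 34.4 ± 4.47 and 30.5 ± 3.67, a similar total made of different genes. In Mbd5+/GT mice each of these sums had a mean within 1 WT SD of the WT mean in the same region.

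**Figure D3:**
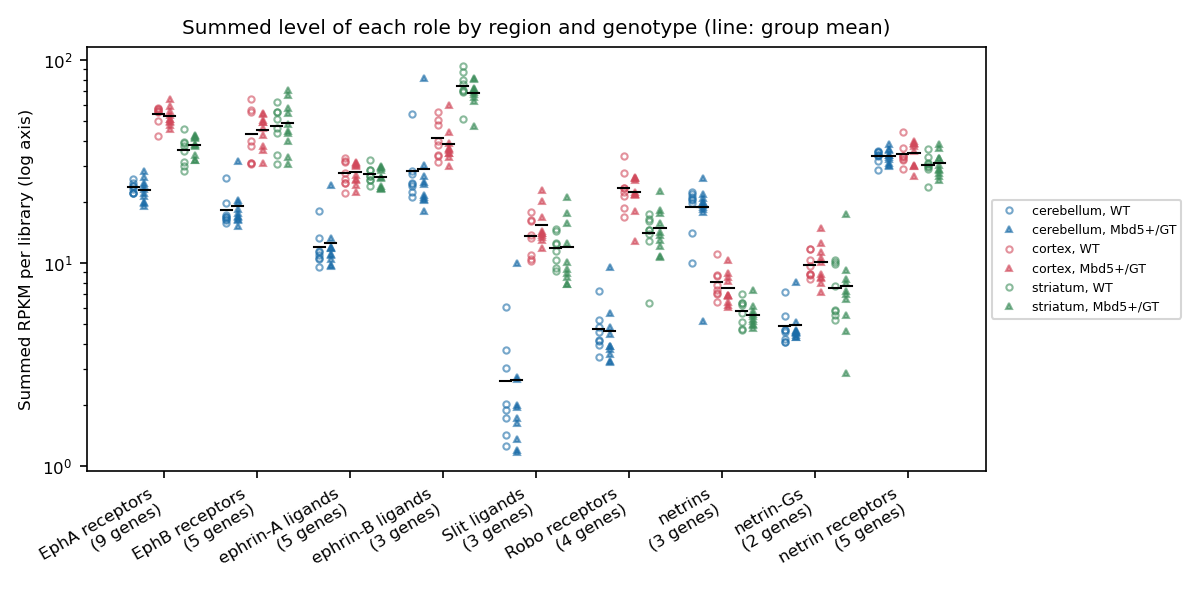
Summed RPKM of the members of each role per library on a log axis, with open circles for WT, filled triangles for Mbd5+/GT, colours for regions and a line at each group mean. The group means of the Slit, Robo and ephrin-A sums are lower in cerebellum than in both other regions, those of the netrin sum are higher, and the genotypes overlap in every role and region.

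The 4 cerebellum libraries with Hox counts differed from the other 14 at members of several roles. Slit1 was 4.06 to 39.5 CPM in them and 0.409 to 2.16 in the others, Slit2 12.0 to 46.4 and 2.15 to 8.81, Epha10 24.8 to 89.1 and 9.60 to 13.7, and Epha5 32.1 to 65.2 and 9.73 to 18.2. Ephb3 and Ntng2 were above the range of the others as well, and Unc5b was below it, at 80.5 to 105 against 108 to 138 CPM. Slit1, Epha10 and Epha5 were highest in Mbd5+/GT M755, which had the lowest sum of granule and Purkinje genes and the highest of Hox genes, and next in WT M754. The oligodendrocyte list was also high there, at 31195 and 18895 CPM, against 4111 to 7913 CPM in the 14 others. The part of this tissue makeup in the member levels was not tested. Without these libraries, the fold below cortex moved from 4.44 to 8.12 for Epha10 and from 5.02 to 8.04 for Epha5, and that below striatum from 2.88 to 5.37 and from 2.60 to 4.24.

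**Figure D4:**
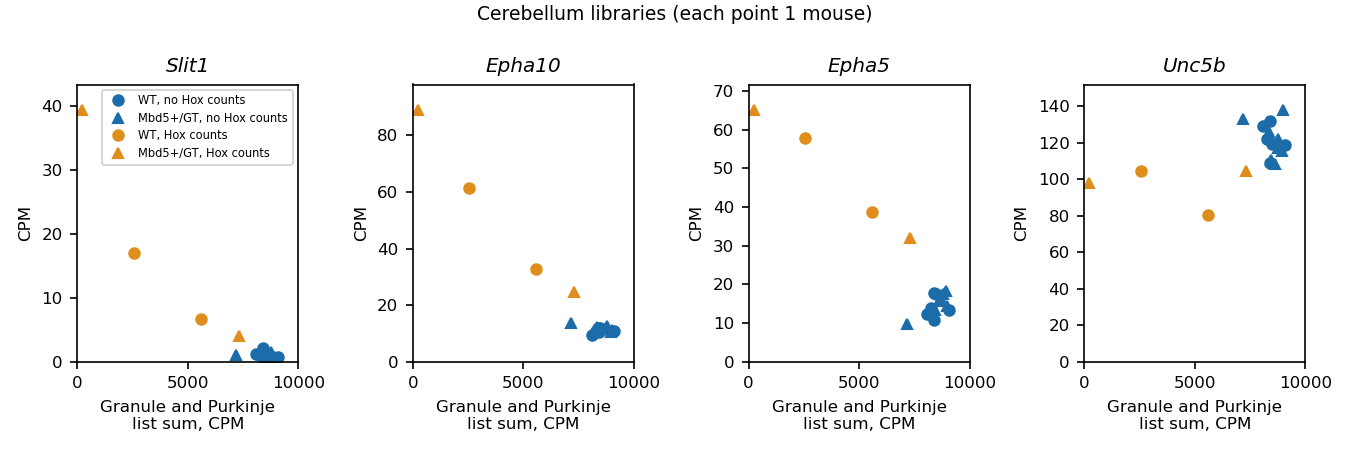
Level of Slit1, Epha10, Epha5 and Unc5b in CPM in the 18 cerebellum libraries against the summed CPM of 10 granule and Purkinje cell genes; circles are WT and triangles Mbd5+/GT mice, and orange marks the 4 libraries with Hox counts. The orange points lie above all blue ones for Slit1, Epha10 and Epha5 and below them for Unc5b.

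Of 33 other genes of these pathways, 5 were higher and 6 lower in WT cerebellum than cortex, beside 8.97% and 15.7% of all genes. Against striatum 6 were higher and 5 lower (12.8% and 17.3% of all genes), and between cortex and striatum 1 each way (6.15% and 4.4%). Ngef, an exchange factor that acts downstream of EphA receptors, and Chn1, a Rac-inactivating protein downstream of Epha4, were far lower in cerebellum, at 15.1 CPM ± 7.78 and 153 ± 20.9 against 332 ± 58.8 and 1058 ± 81.7 in cortex and 552 ± 262 and 846 ± 205 in striatum (log2 against cortex −4.46 ± 0.32 and −2.79 ± 0.13). Flrt2, an Unc5 ligand, was lower in cerebellum than cortex (18.2 ± 5.45 and 84.5 ± 10.1 CPM, log2 −2.22 ± 0.18). Ablim1, an actin-binding protein acting in netrin signalling, was higher in cerebellum than striatum (441 ± 112 and 91.4 ± 25.8 CPM, log2 2.27 ± 0.20). Draxin, a secreted Dcc ligand, and Flrt2 were the genes called between cortex and striatum, at log2 −1.62 ± 0.38 and 1.11 ± 0.18. Srgap1, which acts below Robo, had the third difference by size there without a call (log2 −0.92 ± 0.22, adjusted p = 0.00056).

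The comparison of Mbd5+/GT with WT mice was made within each region with genotype and surrogate variables, unmeasured sources of variation estimated from all genes, as terms. No member had an adjusted p under 0.05 in any region by edgeR or DESeq2. The smallest adjusted p of edgeR was 0.35 for cortex, 0.64 for striatum and 1.00 for cerebellum, where Ntn5 was too low to be tested, and that of DESeq2 was 0.092, 0.61 and 1. Over all genes tested 0.0107%, 0.00539% and 0.00551% passed in cortex, striatum and cerebellum. At an unadjusted p under 0.05, 1 member was higher and 2 were lower in Mbd5+/GT cortex, beside 3.96% and 4.51% of all genes. In striatum 0 were higher and 1 was lower (4.24% and 3.2%), and in cerebellum 1 each (0.964% and 1.78%). At these shares 3.3, 2.9 and 1.04 of the members would be counted, so the members' counts were near the background. The 95% intervals of the fitted difference lay within 2-fold for 38 of 39 members in cortex (all but Epha1), 38 of 39 in striatum (all but Ntng1) and 38 of 38 in cerebellum, and within 1.5-fold for 34, 30 and 34. These intervals take the surrogate variables as known, and none were made without them. For the members with an unadjusted p under 0.05, the SE was larger without surrogate variables, as for Epha3 in striatum (0.29 against 0.15). The intervals therefore depend on that choice.

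In cortex, Epha3 ranged from 6.82 to 14.4 CPM in WT (median 11.2) and from 6.45 to 10.4 in Mbd5+/GT mice (median 7.58). All 10 Mbd5+/GT libraries lay below the WT mean, the ranges overlapped, and the log2 difference was −0.34 ± 0.11 (unadjusted p = 0.0055, adjusted p = 0.41). It was negative in each litter (−0.40, −0.44 and −0.30 in litters 1, 2 and 3). Efnb2 ranged from 49.8 to 83.9 CPM in WT (median 61.7) and from 36.3 to 67.2 in Mbd5+/GT mice, with a log2 difference of −0.30 ± 0.09 (unadjusted p = 0.0029, adjusted p = 0.35), and −0.43, −0.43 and −0.30 by litter on unadjusted log2 levels. Slit1 was 35.9 to 66.5 CPM in WT (median 47.5) and 47.2 to 98.96 in Mbd5+/GT mice (median 57.1), with a log2 difference of 0.35 ± 0.12 (unadjusted p = 0.0097, adjusted p = 0.44) and 0.31, 0.67 and 0.40 by litter. Litter 2 held a single WT mouse. The summed striatal projection neuron genes had a median of 1295 CPM in WT and 588 CPM in Mbd5+/GT cortex, with overlapping ranges. The WT cortex libraries with the highest sums, M765, M752 and M761, held the highest WT Efnb2, at 75.9, 83.9 and 75.8 CPM. Epha3 was highest in WT in M754 (14.4 CPM), which had the lowest sum, but lowest in M751 (6.82 CPM), which had the next lowest. After M754, Epha3 was highest in M761 and M752 (13.6 and 13.1 CPM), which had high sums. Slit1 was highest in WT in M751 and next in M754 (66.5 and 58.1 CPM), with M752 close behind (57.4 CPM). The part of this tissue makeup in the genotype differences was not tested. The Efnb2 difference was smaller without the filter on low counts (log2 −0.16), with at least 10 counts in every library (−0.18) and without litter 2 (−0.20), and that of Epha3 was −0.22 without the filter. With litter and sex in place of the surrogate variables the unadjusted p was 0.025 for Epha3, 0.011 for Efnb2 and 0.0013 for Slit1, each with an adjusted p of 1. In 2-sided exact permutation tests over all 43758 splits of the mice, without surrogate variables, the p was 0.032 for Epha3, 0.042 for Efnb2 and 0.034 for Slit1, and over the 3500 splits that kept genotype numbers within litters it was 0.035, 0.049 and 0.018. These 3 genes were picked from 39 for their small p, so none of these values is corrected for that choice.

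In striatum the lower Epha3 (3.69 CPM ± 1.39 against 4.46 ± 2.39, log2 −0.35 ± 0.15, unadjusted p = 0.037, adjusted p = 0.64) had an unadjusted p of 0.32 in the edgeR fit without surrogate variables. The exact permutation p was 0.59, and the litters went different ways (0.20, −0.65 and 0.05). Epha1 in cerebellum (0.488 CPM ± 0.175 in Mbd5+/GT and 0.351 ± 0.108 in WT, log2 0.48 ± 0.19) and Efnb2 in cerebellum (23.1 ± 4.30 and 25.2 ± 2.08, log2 −0.15 ± 0.06) had unadjusted p of 0.018 each and adjusted p of 1.00. Their exact permutation p was 0.053 and 0.22, and without the 4 libraries with Hox counts their unadjusted p was 0.092 and 0.081. With litter and sex as covariates it was 0.029 and 0.19. The remaining members did not reach an unadjusted p of 0.05, Robo2 in cortex being closest (125 ± 15.7 in WT and 109 ± 18.2 CPM in Mbd5+/GT mice, log2 −0.20 ± 0.09).

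**Figure D5:**
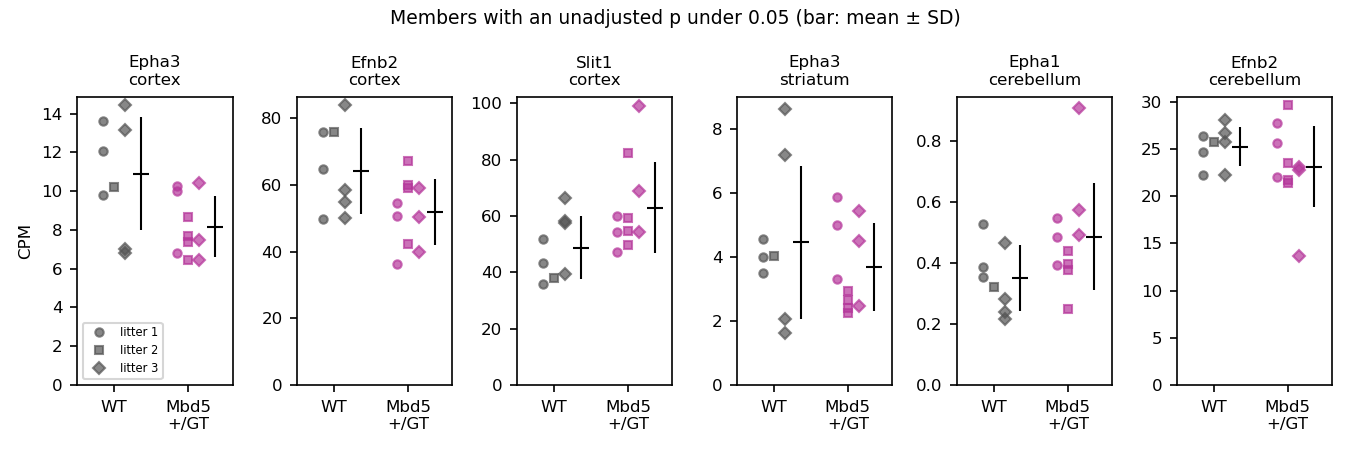
Level in CPM of the members with an unadjusted p under 0.05 for genotype, by genotype and region, with 1 point per mouse, marker shapes for the 3 litters and a bar at the mean ± SD. WT and Mbd5+/GT values overlap in all 6 panels, and no member passed after adjustment over all genes.

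Of the 33 other pathway genes, 1 was higher and 3 lower in Mbd5+/GT cortex at an unadjusted p under 0.05, 3 were higher in striatum and 0 changed in cerebellum, and 0 passed after adjustment by edgeR or DESeq2. At the shares of all genes 2.79, 2.46 and 0.907 of the 33 would be counted in cortex, striatum and cerebellum, so these counts were near the background. In cortex the genes were Draxin (1.02 CPM ± 0.40 against 0.629 ± 0.229, log2 0.61 ± 0.18), Flrt3 (log2 −0.18 ± 0.07), Srgap1 (−0.19 ± 0.08) and Ptk2 (−0.08 ± 0.04), and in striatum Lrrc4c (0.17 ± 0.07), Adam10 (0.15 ± 0.06) and Enah (0.13 ± 0.05).

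The genotype effect was then compared between regions as an interaction. This came from the fit of all 54 libraries in 6 groups, without surrogate variables, so it did not compare the fitted effects given above. Its SE ran from 0.14 (Efna2) to 0.96 (Ntn5) on the log2 scale, both between cerebellum and striatum, so for members with a large SE it could miss sizeable differences. No member had an adjusted p under 0.05 by edgeR or DESeq2 in any pair of regions. At an unadjusted p, 0 members passed between cerebellum and cortex and 0 between cerebellum and striatum, where 1.11% and 2.68% of all genes did. Between cortex and striatum 1 passed (4.22% of all genes). That gene was Efnb2, whose genotype difference in cortex minus that in striatum was log2 −0.36 ± 0.18 (unadjusted p = 0.048, adjusted p = 0.99), and −0.38 (unadjusted p = 0.033) with the mouse as a replicate block. The regional differences of the members were not shown to depend on the genotype.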

How the data were processed

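The authors checked reads with FastQC 0.10.1, aligned them with STAR 2.4.2 to GRCm38 with an Ensembl annotation, and deposited the raw gene counts that STAR made. The strand setting was not given in the sources used here, so genes that overlap on opposite strands cannot be told apart. Symbols came from a GRCm38 annotation. Neither library sizes nor tests used the 92 spike-in rows.

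From the counts, edgeR 4.0.16 (R 4.3.3, TMM, robust quasi-likelihood test, Benjamini-Hochberg adjustment) was fitted to 54 libraries in 6 groups for regions, after keeping genes with over 4 counts in at least 8 libraries. Genotype was fitted within each region with surrogate variables from sva 3.50.0 (2 in cerebellum, 4 in cortex, 4 in striatum). Mice are the replicates. DESeq2 1.42.0, its size factors, other filters, covariates, left-out litters and libraries, and the mouse as a replicate block were alternatives. Leaving out the libraries with Hox counts or low striatal markers was chosen after seeing the data. The 3 regions come from the same mice, and deviations from group means correlated more within mice (median r 0.164, 0.062 and 0.091) than between mice (−0.01, −0.007 and 0). Genotype groups hold different mice, so the mouse cannot be a block there, and litter and sex were covariates in an alternative. No 2 libraries of a group agreed within sampling noise.

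Members and lists were chosen with earlier results of these data known. Named with full statistics were the 5 largest called folds in each direction per regional contrast every member with an unadjusted genotype p under 0.05 or the smallest p in a region, and, of the other pathway genes, those with such a p and the 3 largest folds per WT contrast. Statistics of further members, such as Epha4 between regions and Robo2 by genotype, were added after their values were seen. The scripts were tested on simulated data. Permutation tests and differences by litter used log2 CPM with a prior count of 2.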

Additional observations from a re-analysis of the deposited data

Results flagged for a closer look

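A sample stood apart from its group, by Dixon's test of the gap to the nearest sample, for 47 of 234 groups of 8 or 10 libraries (39 members by region and genotype). In independent groups of normal values chance gives about 1 in 20, or 11.7. These groups of CPM share libraries and need not be normal, so 47 beside 11.7 is not a test. Of the 47, 20 came from Mbd5+/GT M755 cerebellum and 9 from WT M754 cerebellum. The values are in CPM, with the nearest library of the same group in brackets, and their cause was not tested.

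Mbd5+/GT M755 cerebellum held 20 such values, Epha1 0.91 (0.574), Epha5 65.2 (32.1), Epha8 15.4 (38.5), Epha10 89.1 (24.8), Ephb1 82.7 (63.7), Ephb3 8.44 (3.65), Ephb6 58 (19.5), Efna3 35.7 (11.4), Efna5 13.6 (9.12), Efnb2 13.7 (21.4), Efnb3 249 (81.8), Slit1 39.5 (4.06), Slit2 46.4 (12), Robo1 56 (29.2), Robo3 4.39 (1.5), Ntn4 7.53 (31.8), Ntn5 0.533 (0.184), Ntng1 36 (26.3), Ntng2 14.6 (7.93) and Unc5d 28.5 (18.2). It is the library with 283 CPM of Hox genes and 228 CPM of granule and Purkinje genes. WT M754 cerebellum held 9 such values, Epha10 61.6 (32.7), Ephb1 78.5 (58.2), Ephb3 6.66 (3.7), Ephb6 38.3 (20.3), Efna3 22.6 (12.1), Efnb3 157 (75.8), Slit1 17.1 (6.75), Robo1 39.6 (25.1) and Ntng1 38.1 (26.1). It is the library with 142 CPM of Hox genes and 2556 CPM of granule and Purkinje genes. Mbd5+/GT M758 striatum held 3 such values, Epha1 0.992 (0.62), Ntng1 124 (24.1) and Unc5c 43.4 (26.1). WT M754 striatum held 2 such values, Epha2 3.92 (2.32) and Ntn4 17.7 (11.5). WT M757 cortex held 2 such values, Ephb4 8.05 (5.54) and Efna4 0.397 (0.278). Mbd5+/GT M755 cortex held 1 such value, Epha4 245 (182). Mbd5+/GT M755 striatum held 1 such value, Efna2 7.8 (6.33). Mbd5+/GT M756 striatum held 1 such value, Efnb3 115 (171). Mbd5+/GT M758 cortex held 1 such value, Ntng1 49.4 (33.3). Mbd5+/GT M766 cortex held 1 such value, Efnb3 147 (97.1). WT M751 cortex held 1 such value, Ntn5 13.5 (6.71). WT M754 cortex held 1 such value, Epha2 2.87 (1.88). WT M761 striatum held 1 such value, Robo2 20.6 (65.3). WT M762 cortex held 1 such value, Ephb1 37.1 (43.2). WT M762 striatum held 1 such value, Ntng1 64.5 (35.9). WT M765 striatum held 1 such value, Ntn5 3.09 (1.61).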

How the results depend on the processing

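The regional counts in WT mice (28, 24 and 6 members for cerebellum against cortex, cerebellum against striatum and cortex against striatum) stayed within 1.5 times under every alternative run. With the mouse as a replicate block they were 28, 26 and 7, and 29, 28 and 7 in Mbd5+/GT mice. DESeq2 gave 28, 25 and 8, and leaving out litter 2 gave 28, 21 and 8. Among named genes, cortex minus striatum fell under the call without the 2 repeated libraries for Epha3 (log2 1.00) and Slit2 (0.91), and for Slit2 without a filter (1.11). The numbers of members with an unadjusted genotype p under 0.05 were small and moved more. In cortex there were 3, and 5 with DESeq2. In striatum there was 1, with 0 without surrogate variables, 2 with at least 10 counts in every library and 2 without the 5 libraries low in striatal markers. In cerebellum there were 2, with 0 without surrogate variables, 1 with litter and sex, 1 with DESeq2 and 1 with at least 10 counts in every library, where Epha1 could not be tested. The interaction of cortex and striatum had 1, and 0 with DESeq2. The cause of these moves was not tested. None of the named differences with a regional call or an unadjusted genotype p under 0.05 reversed under the alternatives run. Among members without such a p the sign of the genotype difference did change without surrogate variables, as for Slit1 in cerebellum (log2 −0.23 and 0.39). Epha1, Efna4 and, in cerebellum, Ntn5 rest on few counts, which limits what depth can show for them.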
